A study of Mus musculus with 4 samples.

Results

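Immediate early genes are switched on within minutes of a stimulus, without new protein synthesis, and their short-lived transcripts are lost again soon after. A set of 10 genes grouped under this name, Fos, Fosb, Jun, Junb, Jund, Egr1, Atf3, Ier2, Ier3 and Zfp36, was followed through single-cell RNA sequencing libraries of mouse testis. The members were taken by gene symbol, and all 10 were among the 18419 genes of the table. Fos and Fosb pair with Jun, Junb or Jund to form AP-1, a transcription factor that growth factors, cytokines and cell stress activate through the MAP kinases. Egr1 is a zinc finger factor of the same first wave, Atf3 is a stress-induced basic zipper factor that can repress its targets, Ier2 is a nuclear protein, Ier3 acts in cell survival, and Zfp36 (tristetraprolin) binds AU-rich mRNAs and speeds their decay. In mice, loss of Jund is known to impair spermatogenesis, and enzymatic dissociation of tissues is known to induce this gene set.

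The mice were of the outbred ICR stock. A0 was the vehicle control, A10 received alginate oligosaccharides (AOS, fragments of a seaweed polysaccharide) at 10 mg/kg body weight, B0 received busulfan alone, and BA10 received busulfan followed by AOS at 10 mg/kg. Busulfan is an alkylating anti-cancer drug that depletes germ cells; per the study's methods, it was given as a single injection to juvenile males, AOS or water was given daily from the day after, and the cells of several mice were pooled for each library. Testes were dissociated with TrypLE, a trypsin-like enzyme mix, and captured with 10x Genomics 3' chemistry, which tags each transcript with a unique molecular identifier (UMI).

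Each group was 1 library, so there was no test between groups, and the intervals below are 95% intervals that cover counting error only, not the spread between mice. Cells numbered 8941 for A0, 9682 for A10, 4659 for B0 and 3778 for BA10. B0 stood apart in depth: its cells had a median of 4214 UMIs against 12685, 10948 and 17989 in A0, A10 and BA10, and its shallowest cell had 2985 UMIs against 7687, 6716 and 9013. Pairs of libraries shared 31 to 135 cell barcodes. Cells were grouped into 26 clusters with the 10 members left out of the clustering genes, and the clusters were named from marker genes (SPG-like for spermatogonia, SPC-like for spermatocytes, ST-like for spermatids, and Leydig-like, Sertoli-like or macrophage-like cells) or left unnamed. The libraries differed strongly in this makeup: Leydig-like cells were 63% of B0 and 3.36% of BA10 but 5 and 8 cells in A0 and A10, ST-like cells were 61.1% of A0 and 62.6% of A10 against 0.129% of B0 and 11.3% of BA10, and macrophage-like cells were 9.68% of B0 and 1.59% of BA10. The line between SPC-like and ST-like cells moved with the clustering: under 5 other ways of naming cells the ST-like share was 48.5% to 83.7% in A0 and 1.09% to 17.2% in BA10, and cluster 11, with 1165 cells of A0, was ST-like on a marker score of 0.218 against 0.213 for spermatocytes.

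The bases just before the start of Fos, Jun, Junb and Atf3, 4 of the 10 members, are shown because short elements in this stretch are known to regulate immediate early genes. They are the 200 bases before the start that RefSeq gives (GRCm38.p6), 5' to 3' on the strand of the gene, and capitals mark matches on either strand to 8 motifs. These were the cAMP response element type of site, spelled TGACNTCA, and its core, spelled TGACGT, which lies within the longer one where N is G. The AP-1 site was spelled TGANTCA, the GC box GGGCGG and the CCAAT box by its name. The TATA box was spelled TATAAA, the Egr1 type of site, which can overlap a GC box, GCGTGGGCG, and the CArG box is given by name.
Fos: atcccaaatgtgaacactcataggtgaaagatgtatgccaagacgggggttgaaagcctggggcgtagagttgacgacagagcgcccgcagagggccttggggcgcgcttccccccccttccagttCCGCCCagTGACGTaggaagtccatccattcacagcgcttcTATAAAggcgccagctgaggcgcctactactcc
Jun: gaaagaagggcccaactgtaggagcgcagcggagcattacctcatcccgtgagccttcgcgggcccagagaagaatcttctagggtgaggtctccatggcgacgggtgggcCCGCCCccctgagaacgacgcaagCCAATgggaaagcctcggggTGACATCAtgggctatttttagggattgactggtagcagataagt
Junb: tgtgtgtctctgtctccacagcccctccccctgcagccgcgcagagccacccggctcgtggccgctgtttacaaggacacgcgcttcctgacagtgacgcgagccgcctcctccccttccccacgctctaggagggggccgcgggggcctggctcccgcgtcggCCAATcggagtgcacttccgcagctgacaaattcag
Atf3: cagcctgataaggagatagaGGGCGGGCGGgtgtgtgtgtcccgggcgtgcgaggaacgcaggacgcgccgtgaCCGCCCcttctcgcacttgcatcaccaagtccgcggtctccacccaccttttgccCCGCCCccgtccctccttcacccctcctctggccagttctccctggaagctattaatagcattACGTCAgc
The windows are chr12:85473690-85473889 on the plus strand for Fos, chr4:95052223-95052422 on the minus strand for Jun, chr8:84978749-84978948 on the minus strand for Junb and chr1:191183334-191183533 on the minus strand for Atf3. Fos had TGACGT from 66 to 61 bases before the start and TATAAA from 33 to 28, Jun had a match to TGACNTCA from 45 to 38, and Atf3 had TGACGT on the other strand from 8 to 3. Of 32851 windows of this length in the RefSeq table, 6.62% held the cAMP response element type of site, 5.85% its core, 5.48% the AP-1 site, 31% the GC box, 29.3% the CCAAT box, 9.96% the TATA box, 0.49% the Egr1 type of site and 1.18% a CArG box. Of the windows not printed, that of Zfp36 had a CArG box from 58 to 49 bases before its start and a GC box. That of Fosb had a GC box, and that of Ier3 a CCAAT box and a GC box. Some genes have several starts: the window of Atf3 lies 7 bases from a GENCODE M21 transcript start but 34706 bases inside the outermost one, that of Zfp36 lies 27 bases from one and 1025 bases inside the outermost, and that of Jund ends 1210 bases before the only one. Of the 10 members, a window was used here for 8 and none for Ier2 and Egr1, and the motif letters were chosen with the sequences known.

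In GENCODE M21 (mm10) the Fos gene spans 4 exons at chr12:85473890-85477273, and Jun, Junb and Jund are genes of 1 exon at chr4:95049034-95052222, chr8:84974484-84978718 and chr8:70698949-70700616. No member overlapped another gene of its own strand. The reads come from the 3' end of the transcripts, so levels are given as UMIs per 1000000 UMIs of the library or group (CPM), and lengths do not enter.

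The 10 members were scarce in A0 and A10 and abundant in B0, and in BA10 their total, though not its makeup, was near that of A0. Summed over the members, the level was 51.4 CPM in A0 and 49.2 in A10, against 893 in B0 and 49.7 in BA10. The near totals of A0 and BA10 rested on Jund: without it the sum was 9.13 CPM in A0 and 9.09 in A10, against 630 in B0 and 32.1 in BA10. In the Jun family, 85.5% of the UMIs of A0 were Jund (interval 84.6 to 86.2) against 47.6% in BA10 (45.9 to 49.3).

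Of the Fos family, Fos was at 0.371 CPM in A0 and 0.153 in A10, against 150 in B0 and 3.29 in BA10. Fosb was at 0.404 CPM in A0 and 0.334 in A10, against 33 in B0 and 0.548 in BA10. B0 was far above the other libraries for both genes. Of the Jun family, Jun was at 6.14, 6.34, 128 and 13.8 CPM in A0, A10, B0 and BA10. Junb was at 1.06, 0.995, 105 and 5.59 CPM in the same order. For both, BA10 lay between the busulfan library and the libraries without busulfan.

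Jund had another order. It was the most abundant member in every library, at 42.3 CPM in A0, 40.1 in A10 and 264 in B0, and its 17.6 CPM in BA10 (16.7 to 18.5) was the lowest of the 4. Egr1 was at 0.438, 0.445, 75.4 and 1.54 CPM in A0, A10, B0 and BA10. Atf3 had 6 UMIs in A0 and 0 in A10, where 3 UMIs would be 0.0209 CPM, and was at 11.5 CPM in B0 and 0.372 in BA10. Again B0 alone was high.

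Ier2 was at 0.418, 0.64, 63.5 and 5.09 CPM in A0, A10, B0 and BA10. Ier3 was at 0.113, 0.0974, 17.6 and 0.701 CPM. Zfp36, the mRNA decay factor of the set, was at 0.146, 0.0835, 45.4 and 1.25 CPM. The intervals of B0 overlapped those of no other library for any member.

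**Figure D1:**
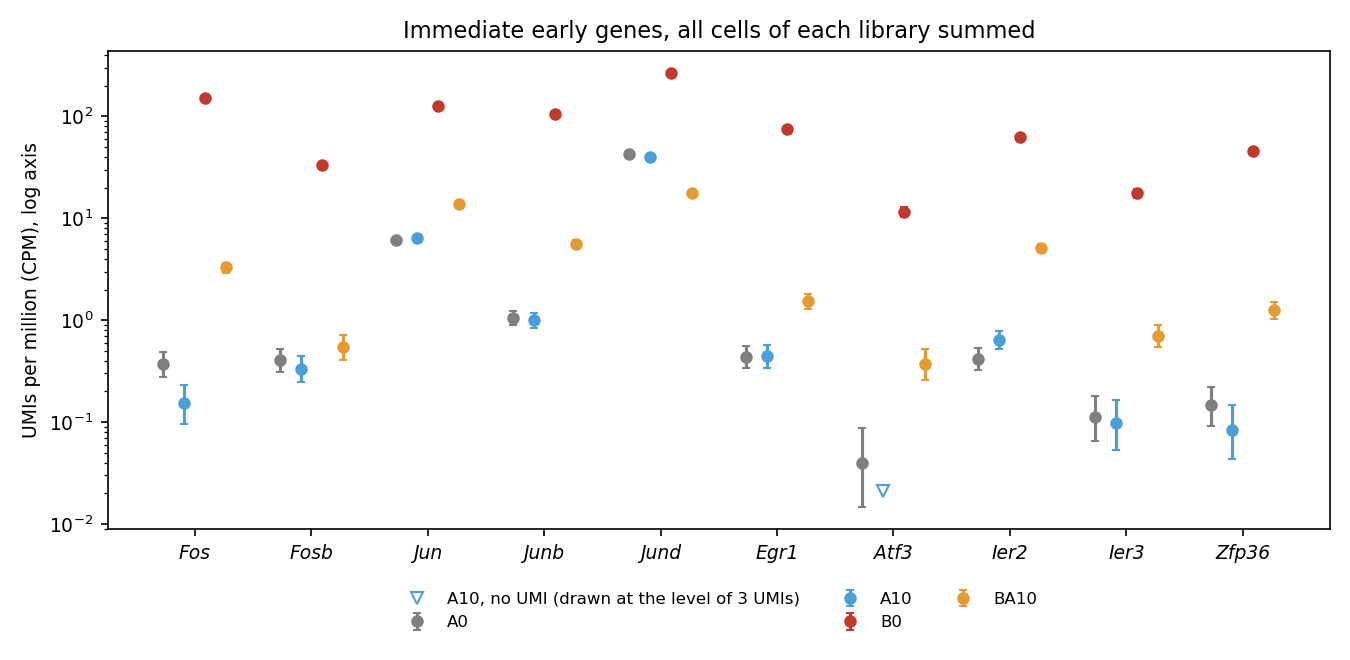
Levels of the 10 members (horizontal axis) in UMIs per 1000000 (vertical axis, log scale) in the 4 libraries, each over all of its cells, with 95% exact Poisson intervals as bars. B0 is highest for every member (Jund 264 CPM, Fos 150 CPM), and the open triangle marks Atf3 in A10, which had 0 UMIs and is drawn at the level of 3 UMIs.

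With AOS alone the summed level of the set was close to that of the control. A difference is called here when the log2 ratio of CPM, with 1 CPM added to each level, is at least 1 in size (2-fold). That added CPM understates differences of scarce genes, and a gene below 1 CPM in both groups cannot pass. Fos, Fosb, Egr1, Atf3, Ier2, Ier3 and Zfp36 were below 1 CPM in both A10 and A0, so they could not be called. None of the 10 members passed 2-fold between A10 and A0. The median log2 ratio of the members was -0.05 (-0.14 to 0.08) and their range -0.25 to 0.21. Brackets after a median of the members, here and below, hold the medians of the members' bounds, not an interval of that median. Among the 9967 genes with a mean of at least 5 CPM over the libraries, 0.0401% were 2-fold higher and 0.0702% 2-fold lower in A10. B0 enters that mean, which 8 members met and Atf3 and Ier3 did not. In A0 and A10 themselves only Jun and Jund, of the members, were at 5 CPM or more. Over all 18419 genes the shares were 0.0326% higher and 0.0652% lower. The largest log2 ratio in size was that of Fos, whose level without the added CPM was 2.43-fold lower in A10 (1.46 to 4.17), from 22 UMIs against 56. Of those 56 Fos UMIs of A0, 23 lay in 16 somatic-like cells (5 Leydig-like and 11 macrophage-like), which held 0.131% of the UMIs of A0, and outside them 33 UMIs stood against 22 in A10. Ier2 went the other way and was 1.53-fold higher in A10 (1.1 to 2.15).

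Within classes the summed level was also close, at 26.3 CPM in A10 and 24.2 in A0 in SPC-like cells. In ST-like cells it was 57.3 and 58.7 CPM. The members named above as below 1 CPM were so in both classes, as was Junb in ST-like cells, and could not pass 2-fold. In SPC-like cells, 2866 of A10 and 2699 of A0, the median log2 ratio was 0.01 and 0 members passed 2-fold in either direction, beside 0.0502% of genes higher and 0.0602% lower. In ST-like cells, 6062 of A10 and 5466 of A0, the median was -0.02 with 0 members past 2-fold, beside 0.0502% of genes higher and 0.0401% lower. Ier2 in ST-like cells had 43 UMIs in A10 against 21 in A0, a level 2.16-fold higher (1.26 to 3.83).

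Germ cells of both libraries without busulfan differed by cluster in single members. Jun, which in the control was at 14.6 CPM in SPC-like and 1.32 CPM in ST-like cells, reached 28.7 CPM in A0 and 27 CPM in A10 in cluster 2, SPC-like cells led by Pou5f2 and Gfi1. Junb was highest in cluster 0, SPC-like cells led by Gm21190 and Speer4c among others, at 3.6 CPM in A0 and 3.5 CPM in A10. Jund was at 6.92 CPM in SPC-like and 55.3 CPM in ST-like cells of A0, but ST-like clusters were uneven. Clusters 5 and 6 were at 138 and 137 CPM in A0 and 132 and 143 CPM in A10. In A0, ST-like clusters 7, 8 and 16 were at 78.7, 47.1 and 44.6 CPM. ST-like clusters 3, 10 and 11 were at only 11.4, 22.7 and 8.85 CPM. Of the SPC-like clusters of A0, cluster 17 was at 24.3 CPM and the others at 3.77 to 7.55 CPM. Fosb was near 0 in most clusters but at 2.39 CPM in A0 and 1.87 CPM in A10 in cluster 6.

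The 3 Jun genes thus peaked in different germ cell clusters, and the clusters were those of both libraries. Jund was also high in clusters that stayed unnamed, at 107 CPM in A0 and 81.6 CPM in A10 in cluster 12, which was led by Prss50 and Stra8, and at 83.8 and 88.5 CPM in cluster 15, led by Dyrk4. Fos was at most 1.46 CPM in the germ cell clusters of A0 and A10. These levels rest on 1 library each, and clusters differed in depth, from a median of 9224 UMIs in cluster 7 to 36783 in cluster 2.

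**Figure D2:**
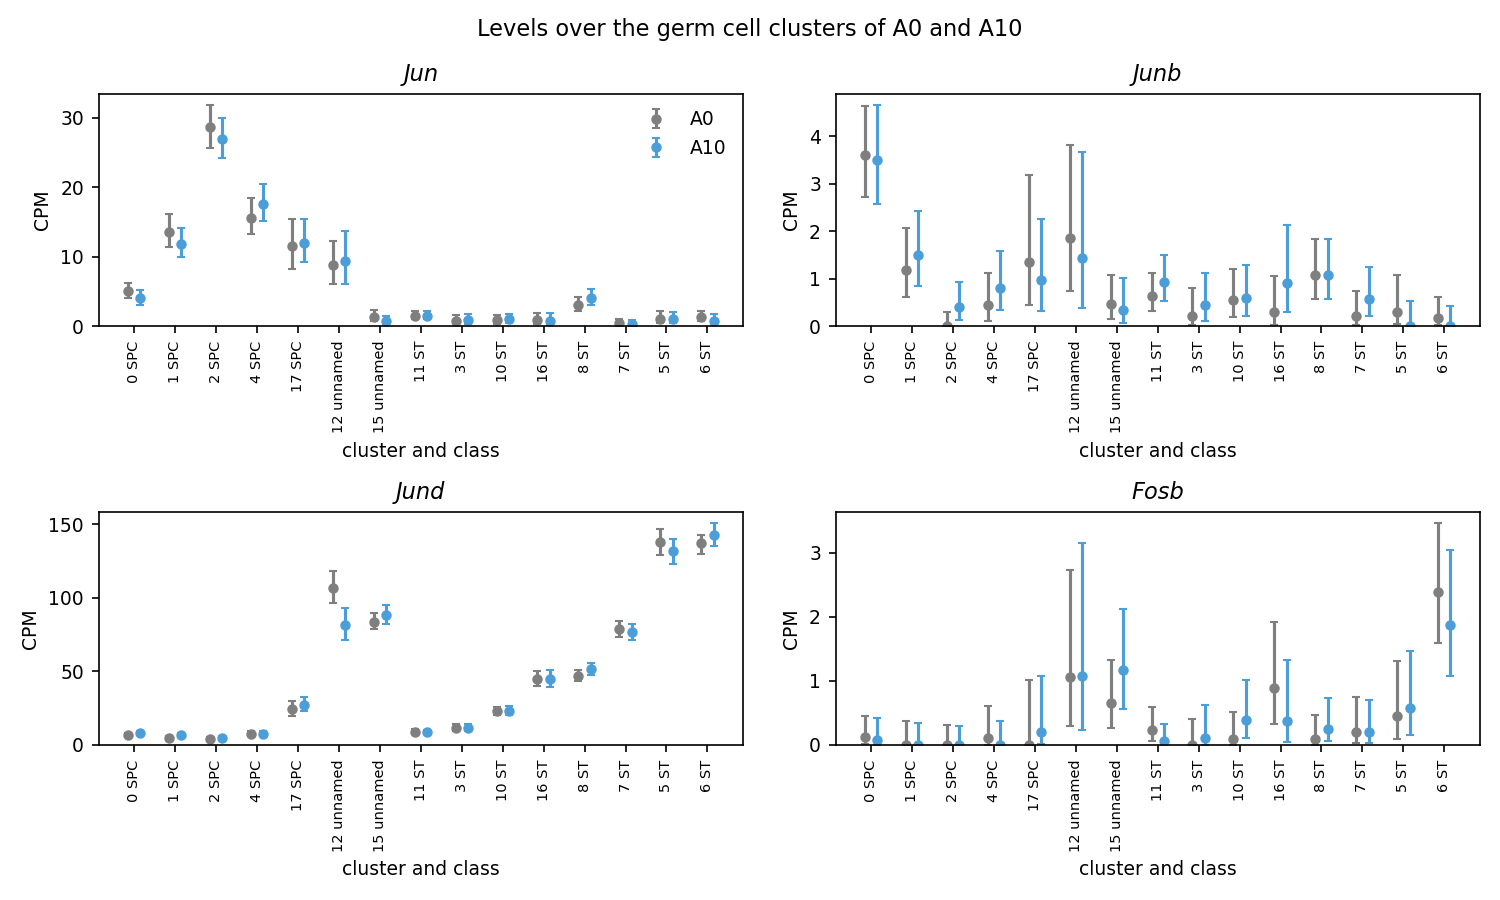
Levels in CPM (vertical axes, linear from 0) of Jun, Junb, Jund and Fosb over the germ cell clusters (horizontal axes, cluster number and class) of A0 and A10, with 95% exact Poisson intervals. Jun is highest in cluster 2 (28.7 CPM in A0), Jund in clusters 5 and 6 (138 and 137 CPM in A0), and the points of the 2 libraries lie side by side.

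In B0 every member was higher than in A0. All 10 were past 2-fold, with a median log2 ratio of 4.97 (4.83 to 5.09) and a range from 2.61 in Jund to 6.78 in Fos, where the 9967 genes had a median of 0.23 and 36.9% of them were 2-fold higher and 23.6% 2-fold lower. Without the added CPM, Fos was 403-fold higher (310 to 535), Egr1 172-fold (135 to 224), Zfp36 311-fold (204 to 498) and Jund 6.23-fold (6.02 to 6.45). In the summed libraries, a higher share of cells that express a gene and more of its RNA per cell cannot be told apart. The markers of other cells moved with the members: the summed level of the 9 Leydig markers was 8.71 CPM in A0 and 11.6 in A10, against 16544 in B0 and 458 in BA10, the 10 macrophage markers at 15.7, 12.3, 711 and 69.4 CPM, the 10 Sertoli markers at 48.8, 52.9, 2506 and 253 CPM and the 12 ST markers at 44397, 50765, 488 and 1539 CPM, with no marker of these lists at 0 in any library. Their part in the result was not tested.

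Most member UMIs of B0 lay in somatic-like cells (Leydig-like, Sertoli-like or macrophage-like). These cells, 3586 in number, held 61.4% of all UMIs of B0 and 89.2% of the member UMIs (88.8 to 89.6), from 82.5% of those of Ier2 to 94.1% of those of Fos. In BA10, 193 somatic-like cells held 3.97% of all UMIs but 26% of the member UMIs (24.7 to 27.3), among them 43.3% of Fos and 11.9% of Jun.

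Among the named classes of B0, the summed member level was highest in macrophage-like (2560 CPM, 2491 to 2631) and Sertoli-like cells (2122 CPM). Leydig-like (1040 CPM), SPG-like (639 CPM) and SPC-like cells (127 CPM) followed. The B0 cells of cluster 18, unnamed and led by Dcn and Cldn5, were at 1197 CPM (1114 to 1284), above Leydig-like cells. The members did not share 1 order. Fos was at 537 CPM in macrophage-like, 256 in Sertoli-like, 179 in Leydig-like, 38.6 in SPG-like and 13.4 CPM in SPC-like cells. Zfp36 was also highest in macrophage-like cells, at 182 CPM against 57.7 in Sertoli-like and 51.6 in Leydig-like cells, and so were Fosb (106 CPM) and Egr1 (247 CPM). Jund was highest in Sertoli-like cells, at 794 CPM, and was at 454 CPM in macrophage-like, 430 in SPG-like and 320 in Leydig-like cells. Ier2 was at 223 CPM in Sertoli-like (192 to 256) and 194 CPM in macrophage-like cells (176 to 215), and Ier3 at 73.9 CPM (56.9 to 94.3) and 57.9 CPM (47.9 to 69.4), so the intervals of these 2 classes overlapped. Atf3 was at 68.3 CPM in macrophage-like (57.3 to 80.6) and 58.9 CPM in Sertoli-like cells (43.8 to 77.4), which overlap, but at 5.84 CPM in Leydig-like cells.

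The macrophage-like cluster, cluster 20, was led by Lyz2, C1qa and Csf1r, with a marker score of 1.000 for macrophages and, next, 0.782 for T cells. However, it also held the Leydig hormone gene Insl3 at 7792 CPM in B0, against 11873 CPM in Leydig-like cells. Insl3 was found in 64.9% of the SPC-like, 58.4% of the SPG-like and 56.6% of the Sertoli-like cells of B0 (median depths 5098, 4081 and 3992 UMIs), types that should lack it, and in 100% of Leydig-like cells (4051 UMIs). There were 0.0876 member UMIs per Insl3 UMI in Leydig-like cells, 0.783 in SPC-like, 2.79 in SPG-like and 6.48 in Sertoli-like cells, and 0.135 over all cells of B0. Against the macrophage markers the ratio was 0.412 in macrophage-like, 0.89 in SPC-like, 2 in SPG-like, 4.6 in Leydig-like and 5.11 in Sertoli-like cells. The part of RNA from other cells in the member levels was not tested.

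**Figure D3:**
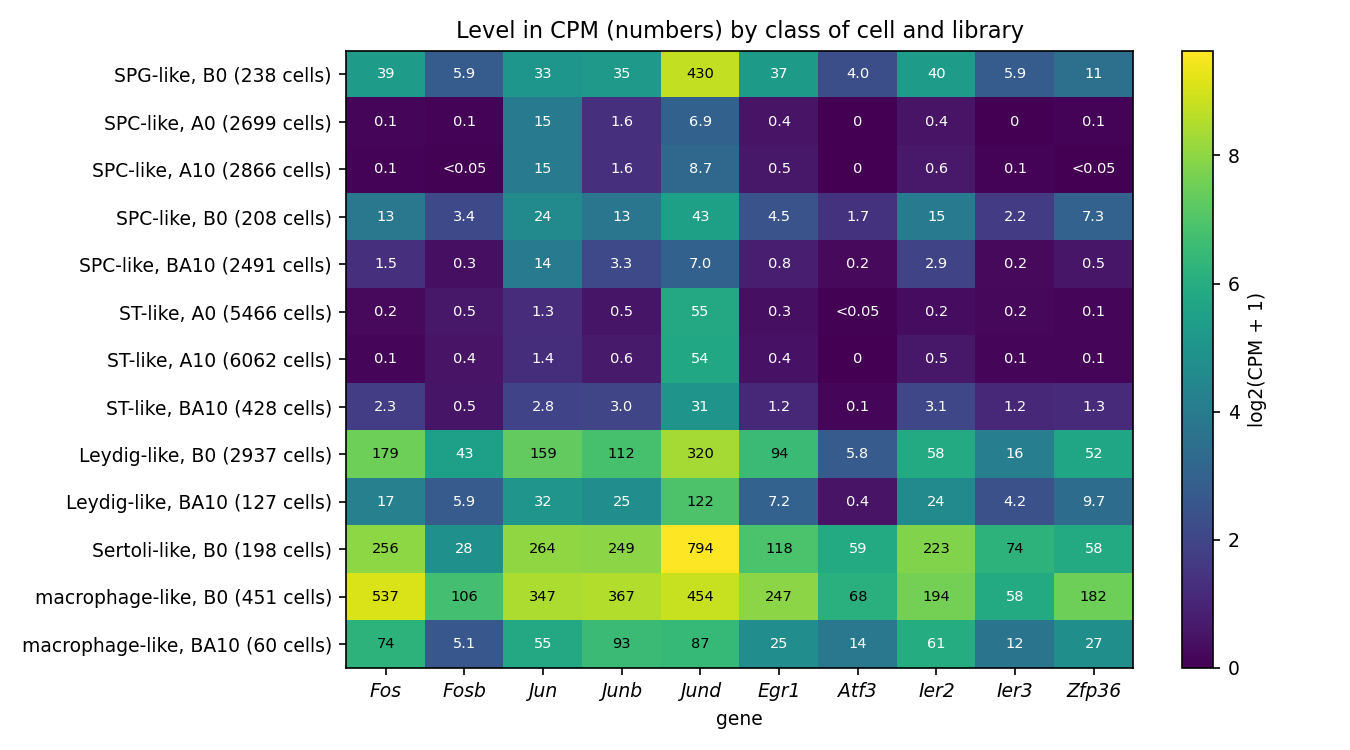
Level in CPM (printed in each field, colour as log2 of CPM plus 1) of the 10 members (columns) in each class and library with at least 50 cells (rows, with the number of cells). The B0 rows of macrophage-like, Sertoli-like and Leydig-like cells are the brightest (Fos 537, 256 and 179 CPM), and the germ cell rows of A0 and A10 hold little but Jun and Jund.

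Single cells of B0 often held several members. To compare cells of unlike depth, each cell was thinned at random to 2500 UMIs, which left out no cell. After thinning, at least 3 of the 10 members were found in 68.7% of macrophage-like (64.2 to 73), 54% of Sertoli-like (46.8 to 61.1), 23.2% of Leydig-like (21.7 to 24.8), 5.88% of SPG-like and 0.481% of SPC-like cells of B0. In BA10 the share was 21.7% of macrophage-like (12.1 to 34.2), 3.94% of Leydig-like and 0.0401% of SPC-like cells, and over all cells it was 0.0336% in A0 and 0% in A10, where 0 of 9682 cells allow up to 0.0381%. Fos alone was found in 57.4% of macrophage-like, 22% of Leydig-like and 3.85% of SPC-like cells of B0; unthinned, Fos was in 29.1% of all B0 cells and thinned in 22.4%.

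Leydig-like cells of B0 were uneven. Thinned to the same depth, 27.4% of the 2937 cells held none of the members and 10.6% held at least 5. Over these cells, the 45 pairs of members had Pearson correlations of log-normalized level from 0.0186 to 0.586, with a median of 0.299; the highest were Fos with Egr1 (0.586), Fos with Jun (0.574) and Fos with Junb (0.56). The cells share a library and differ in depth, so these values are a description. The genes outside the set most like its summed level in these cells were Cxcl1, a chemokine (0.566), Btg2, an antiproliferative cofactor (0.557), Dusp1, a MAP kinase phosphatase (0.392), Rpl41 (0.381), Zfp36l1, a relative of Zfp36 (0.381), and Irf1 (0.372), followed by 4 further ribosomal protein genes. Over 46 library-by-cluster groups, which share 4 libraries, Btg2 again came first (0.968), before Nrip1 (0.946), Impact, Mxra7 and Gadd45g.

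In B0 Leydig-like cells, 8 of the members were highest in the shallowest cells, and Ier3 and Atf3 were not. With the cells split by UMIs into 4 groups of 734 or 735, the summed member level was 1775 CPM from 2985 to 3502 UMIs, 1288 CPM from 3504 to 4050, 826 CPM from 4051 to 4800 and 633 CPM above. Fos went from 368 CPM in the shallowest to 248, 124 and 70.6 CPM in the deepest group, and Egr1 from 192 to 135, 58.9 and 40.3 CPM. Jund went from 408 to 272 CPM, under 2-fold. Ier3 was at 19.3, 25.3, 14.9 and 9.78 CPM from the shallowest to the deepest group, highest in the second, and Atf3 at 6.31, 5.42, 6.51 and 5.36 CPM. Between the shallowest and the deepest group 7 members were past 2-fold, Fos, Fosb, Jun, Junb, Egr1, Ier2 and Zfp36, with a median log2 ratio over the 10 of 1.60 (1.40 to 1.80), where 0.411% of the 9967 genes were 2-fold higher and 10.9% 2-fold lower. Insl3 stayed between 11279 and 12216 CPM over the groups and the macrophage markers between 216 and 250 CPM, while the germ cell markers were at 122 CPM in the shallowest and 288 CPM in the deepest group. In macrophage-like cells the summed level went from 3622 CPM in the shallowest to 1647 CPM in the deepest group, but there the macrophage markers were lower too, at 4387 against 9609 CPM. The germ cell markers were higher in the deepest group of these cells, at 1845 against 242 CPM.

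**Figure D4:**
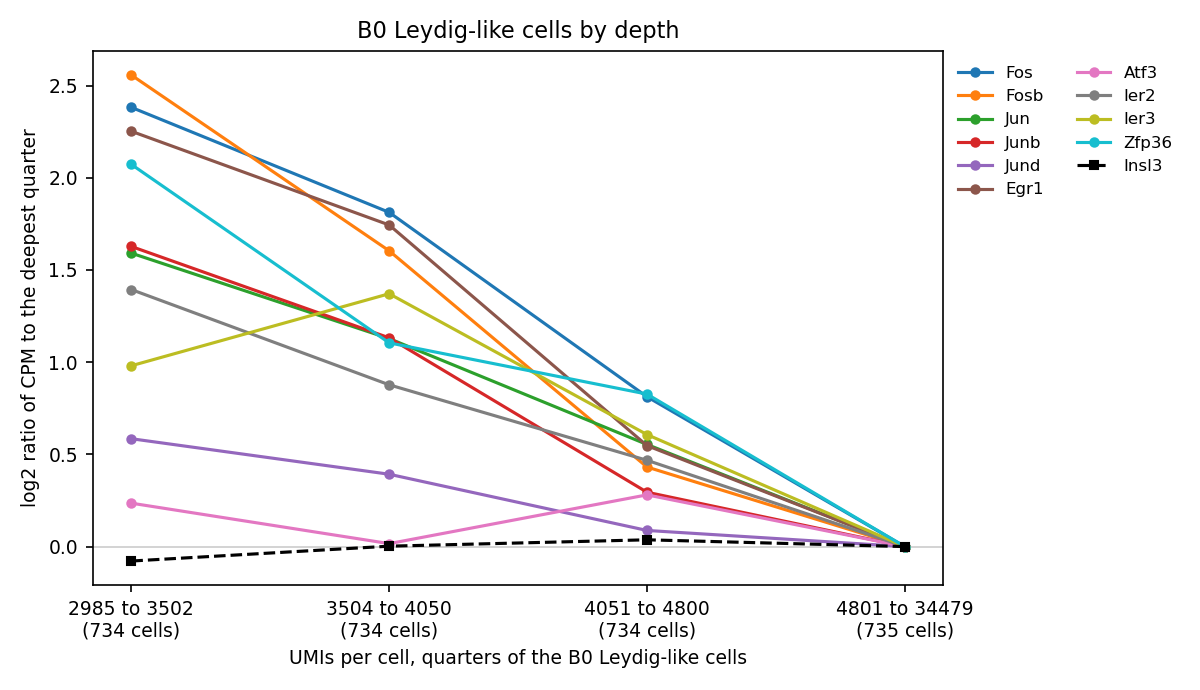
Log2 ratio of the CPM in each of the 4 depth groups to that in the deepest group (vertical axis) for the 10 members and, dashed, Insl3 over the 2937 Leydig-like cells of B0; the horizontal axis gives the range of UMIs per cell of each group. Fos goes from 368 CPM in the shallowest to 70.6 CPM in the deepest group, and Insl3 stays between 11279 and 12216 CPM.

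A common lower limit of depth was also set across libraries, since B0 was the shallowest; above it the cells of the libraries could still differ in depth. Among cells with at least 9013 UMIs, the lowest of the deepest library, B0 kept 448 cells, of which 331 were of cluster 9, and its Fos level was 22.9 CPM (19.4 to 26.8) in place of 150. At this limit 9 members were still 2-fold higher in B0 than in A0, where 22.1% of genes were, with a median log2 ratio of 2.64, and Jund was not, at 0.11 (-0.06 to 0.27). Between BA10 and B0, 9 members were 2-fold lower at this limit, where 15.9% of genes were, with a median of -1.98, and Jun was not, at -0.80 (-1.02 to -0.57). Markers of other cells still differed at this limit: Insl3 was at 0.802 CPM in A0, 355 in B0 and 124 in BA10. The macrophage markers were at 15.3, 291 and 69.4 CPM in the same order. The part of these markers in the result was not tested.

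Germ cells of B0 also carried more of the set than those of A0. In SPC-like cells, 208 of B0 and 2699 of A0, 9 members were 2-fold higher in B0 with a median log2 ratio of 2.24 (1.44 to 2.89), where 31.3% of genes were 2-fold higher. Fos was at 13.4 CPM from 24 UMIs against 0.137 CPM from 7 UMIs, 97.7-fold higher (40.9 to 269), and Jund was 6.22-fold higher (4.79 to 7.98). Jun was the member under 2-fold, at 23.5 against 14.6 CPM. The B0 cells were nearly all of cluster 13 (205 cells) and the A0 cells of clusters 0, 1, 2, 4 and 17, so the clusters differ, and the SPC markers were at 6757 CPM in B0 against 1914 in A0. Markers of other cells were higher too: Insl3 was at 162 against 0.47 CPM, the 9 Leydig markers at 486 against 3.74 CPM, the 10 macrophage markers at 142 against 3.37 CPM, with Adgre1 at 0 in B0, and the 10 Sertoli markers at 1058 against 19.8 CPM. Their part in the result was not tested.

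With AOS after busulfan the whole set was lower than with busulfan alone. All 10 members were past 2-fold lower in BA10 over B0, with a median log2 ratio of -3.92 (-4.02 to -3.83) and a range from -5.14 in Fos to -3.13 in Jun, where the 9967 genes had a median of -0.13 and 32.5% of them were 2-fold lower and 19.3% 2-fold higher. Without the added CPM, Fosb was 60.3-fold lower (45.3 to 81.9), Egr1 48.8-fold (41.1 to 58.4), Fos 45.6-fold (40.5 to 51.4), Junb 18.9-fold, Jund 15-fold, Ier2 12.5-fold and Jun 9.32-fold (8.73 to 9.95). Of the 2 comparisons B0 over A0 and BA10 over B0, the control A0 enters only the first and B0 enters both, so the level of B0 sets the 2 sizes in opposite directions. Set directly against A0 over all cells, BA10 had 4 members 2-fold higher, Fos, Jun, Junb and Ier2, where 18.3% of genes were, and 1 lower, Jund at -1.22 (-1.30 to -1.15), where 16.4% were. Over all 18419 genes these shares were 10.6% and 11.7%. Ier2 had the largest of these ratios at 2.10 (1.94 to 2.25). Without the added CPM, the level of BA10 over A0 was 12.2-fold for Ier2 and 9.36-fold for Atf3 (3.88 to 27.3). Fos was at 8.85-fold, Zfp36 at 8.56-fold, Ier3 at 6.22-fold (3.6 to 11.3) and Junb at 5.26-fold. Egr1 was at 3.53-fold (2.62 to 4.8), Jun at 2.24-fold, Fosb at 1.35-fold and Jund at 0.415-fold. Egr1, Atf3, Ier3 and Zfp36, all below 1 CPM in A0, were under 2-fold only with the added CPM. Within SPC-like cells Jun was at 14.6 CPM in A0 and 14.3 in BA10, and Jund at 6.92 and 6.96. In ST-like cells Jun was at 1.32 and 2.8 CPM, and Jund at 55.3 and 30.9. Fos, Junb and Ier2 were higher in BA10 in both classes, Fos at 1.49 against 0.137 CPM in SPC-like cells. The part of the cell makeup in these ratios was not tested.

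Within classes the members were also lower in BA10. In somatic-like cells, 193 of BA10 and 3586 of B0, all 10 were past 2-fold lower with a median of -1.87 (-2.31 to -1.61), where 25.9% of genes were. Fos was at 35.9 against 230 CPM, 6.4-fold lower (5.37 to 7.68), Egr1 at 14.1 against 115 CPM and Ier2 at 36.1 against 85.2 CPM, 2.36-fold lower (1.97 to 2.84). These cells differed in depth, with a median of 12643 UMIs in BA10 and 4042 in B0, and in kind: 2912 of the 2937 Leydig-like cells of B0 were of cluster 22, whereas those of BA10 were 78 of cluster 21 and 49 of cluster 22. The summed Leydig markers were at 8035 CPM in BA10 and 26565 in B0, the macrophage markers at 920 and 1016 CPM and the germ cell markers at 2298 and 259 CPM. Macrophage-like cells, the class with the highest summed member level in B0, were 60 of the 193 cells in BA10 and 451 of the 3586 in B0. In Leydig-like cells alone Fos was at 17.2 CPM in BA10 (12.4 to 23.4) against 179 in B0 (171 to 186). The part of these differences in the result was not tested. In SPC-like cells 9 members were 2-fold lower, with a median of -1.71 (-2.55 to -0.91), where 31.8% of genes were, and Jun at 14.3 against 23.5 CPM was not. The SPC-like cells of BA10 were mostly of clusters 14, 13 and 24, their SPC markers were at 1743 CPM against 6757 in B0, and their macrophage markers at 29.9 against 142 CPM. Member UMIs per Insl3 UMI were 0.751 in BA10 and 0.783 in B0 in SPC-like cells, and 0.0829 and 0.0876 in Leydig-like cells. Per macrophage marker UMI they were 1.03 and 0.89 in SPC-like cells, and 2.41 and 4.6 in Leydig-like cells. Among SPC-like cells with at least 9013 UMIs, 53 of them of B0, 8 members were 2-fold lower with a median of -1.49, where 20.1% of genes were, and Jun and Egr1 were not, Egr1 at -0.72 (-2.17 to 0.53) from 2 UMIs in B0.

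The clusters that both busulfan libraries filled with at least 50 cells gave the same direction. In cluster 20, macrophage-like, 60 cells of BA10 and 451 of B0, all 10 members were 2-fold lower with a median of -2.50 (-3.02 to -2.13), where 33.5% of genes were; Fos was at 73.7 against 537 CPM and Junb at 93.2 against 367 CPM. The macrophage markers were lower there too, at 2616 CPM in BA10 against 6220 in B0 with none of the 10 at 0. Leydig markers were at 1240 against 18475 CPM, and germ cell markers were higher, at 2572 against 843 CPM. Member UMIs per macrophage marker UMI were 0.173 in BA10 and 0.412 in B0, and per Insl3 UMI 1.25 and 0.329. In cluster 18, unnamed cells led by Dcn and Cldn5, 119 of BA10 and 109 of B0, all 10 were 2-fold lower with a median of -3.65 (-4.59 to -2.91), where 30% of genes were; Jun was at 14.5 against 175 CPM and Jund at 42.2 against 461 CPM. Fosb and Atf3 had 0 UMIs in the cluster 18 cells of BA10. Median depths were 17023 UMIs in BA10 and 4116 in B0 in cluster 18, and 14278 and 4009 in cluster 20. At least 9013 UMIs were held by only 21 B0 cells of cluster 18 and 14 of cluster 20, so no value was taken at this limit. Member UMIs per Insl3 UMI in cluster 18 were 1.68 in BA10 and 5.94 in B0, and per macrophage marker UMI 2.6 and 1.54. Cluster 18 differed in its markers between the libraries: its 9 endothelial markers were at 32.7 CPM in BA10, with 4 at 0, against 1420 in B0, its 10 macrophage markers at 35.3 against 775 CPM, and its 5 stromal markers at 1607 against 2496 CPM. Their part in the result was not tested.

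In cluster 13, SPC-like, 586 cells of BA10 and 205 of B0, 9 members were 2-fold lower with a median of -1.83 (-2.57 to -0.97), where 23.7% of genes were. Fos was at 2.06 against 14 CPM, 6.78-fold lower (3.74 to 12.2), and Jun at 12 against 22.7 CPM stayed under 2-fold. In cluster 9, unnamed cells led by Hba-a1 and Hbb-b2 with Cst9 and Rhox8, 423 of BA10 and 504 of B0, 8 members were 2-fold lower with a median of -1.47 (-2.03 to -0.80), where 9.92% of genes were. There Fos was at 3.54 against 15.4 CPM, 4.34-fold lower (2.79 to 6.98), and Jund at 27 against 31.3 CPM differed little, with a fold of 1.16 (0.945 to 1.42). Among cells with at least 9013 UMIs, 8 members were 2-fold lower in cluster 9 (331 cells of B0), where 10.5% of genes were, and 8 in cluster 13 (51 cells of B0), where 11.1% were; in cluster 13 Egr1, at -0.25 (-2.01 to 0.82) from 1 UMI in B0, was no longer among them. Insl3 was at 169 CPM in B0 and 45.4 CPM in BA10 in cluster 9 and at 165 and 42.9 CPM in cluster 13, and the 10 macrophage markers were at 180 and 48.5 CPM in cluster 9 and at 145 and 33.5 CPM in cluster 13. In cluster 13 the SPC markers were also lower, at 3050 CPM in BA10 against 6974 in B0, and so were the SPG markers, at 671 against 1259 CPM, and the Sertoli markers, at 237 against 1092 CPM. Member UMIs per Insl3 UMI were 0.773 in BA10 and 0.778 in B0 in cluster 13, and 1.3 and 0.735 in cluster 9. Per macrophage marker UMI they were 0.991 and 0.884 in cluster 13, and 1.21 and 0.691 in cluster 9. The part of these markers in the results was not tested.

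**Figure D5:**
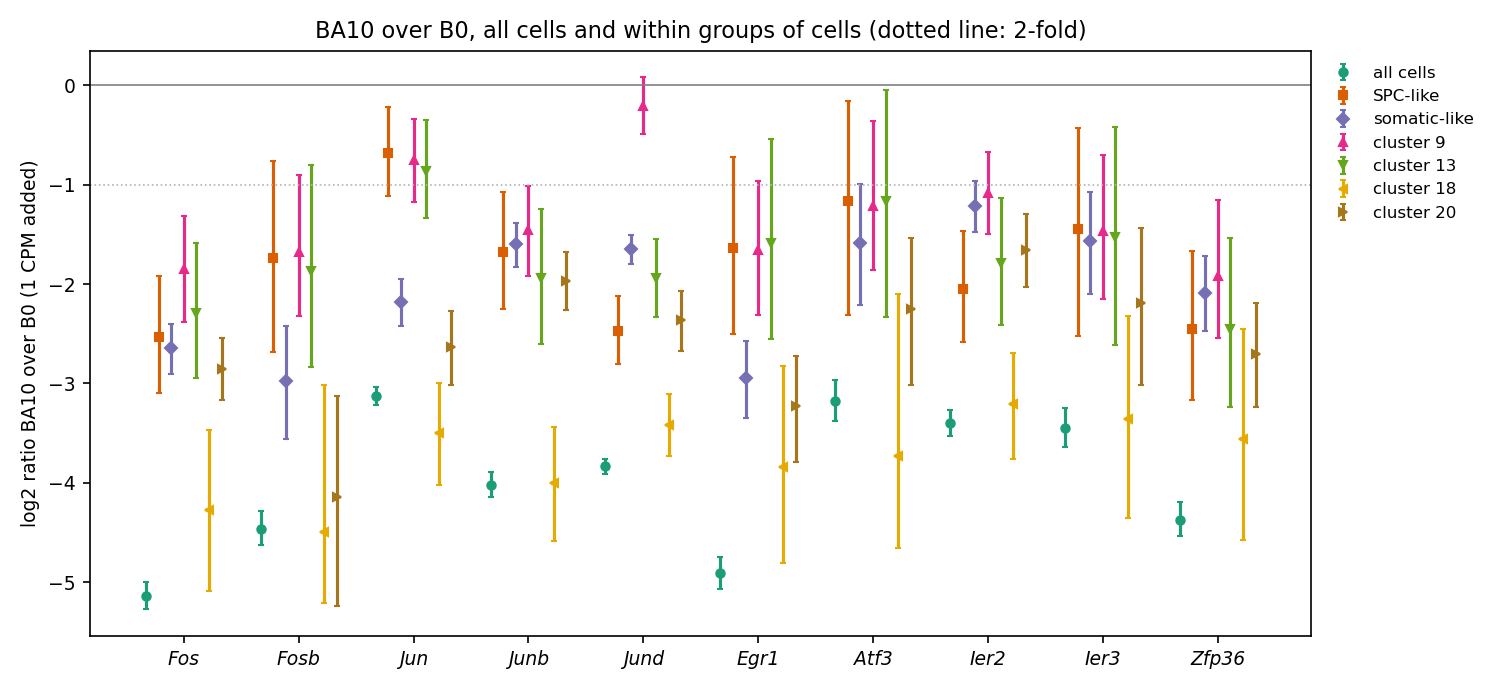
Log2 ratio of BA10 over B0 with 1 CPM added (vertical axis; 0 as a solid and 2-fold as a dotted line) of the 10 members (horizontal axis) over all cells, SPC-like and somatic-like cells and clusters 9, 13, 18 and 20, with 95% counting intervals. All points lie below 0; Fos is at -5.14 over all cells and at -1.85 in cluster 9, and Jund in cluster 9 is at -0.21.

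The genes around the set were counted from lists of the pathway, over every listed gene whatever its level. The shares to read these counts against are those over all 18419 genes of the table: 36.3% higher and 15.1% lower in B0 over A0, with a median log2 ratio of 0.31, and 11.1% higher and 33.2% lower in BA10 over B0, with a median of -0.29. Among cells with at least 9013 UMIs the shares were 17.6% higher and 6.96% lower in B0 over A0, with a median of 0.25, and 0.76% higher and 11.5% lower in BA10 over B0, with a median of -0.16. Over the 9967 genes of at least 5 CPM, the shares at this limit were 22.1% and 9.69%, and 1.14% and 15.9%. In A10 over A0 no gene of the 6 lists passed 2-fold over all cells or in ST-like cells, and in SPC-like cells 1 of the 29 upstream kinases and bound factors was 2-fold lower. Of all genes, 0.0326% were higher and 0.0652% lower in A10 over all cells, 0.0434% and 0.0597% in ST-like cells and 0.0489% and 0.0434% in SPC-like cells. Genes named from the lists are of those with a mean of at least 5 CPM over the 4 libraries, a mean that B0 enters.

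Of 27 genes listed as feedback inhibitors, 18 were 2-fold higher and 3 lower in B0 over A0, with a median log2 ratio of 2.60. In BA10 over B0, 0 were higher and 21 lower, with a median of -2.25. At the common limit 13 were higher and 2 lower with a median of 0.79, and 1 higher and 12 lower with a median of -0.68. The ratios of B0 over A0 were highest for Rgs2, an inhibitor of G protein signalling, at 66 CPM in B0 against 0.411 in A0, and Nfkbia, the NF-kappa-B inhibitor, at 88.3 against 1.31 CPM. The MAP kinase phosphatase genes Dusp10 and Dusp4 went the other way, Dusp4 at 3.67 CPM in B0 against 29.9 in A0. Within A0, Dusp4 was at 43.7 CPM in ST-like and 3.94 CPM in SPC-like cells.

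Of 28 other immediate early factors, 16 were 2-fold higher and 3 lower in B0 over A0 (median 1.37) and 2 higher and 15 lower in BA10 over B0 (median -1.31). At the common limit 11 were higher and 3 lower (median 0.40), and 0 higher and 7 lower (median -0.37). Cebpb was at 139 CPM in B0 against 0.444 in A0 and 4.92 in BA10, whereas Csrnp1 was at 7.98 against 37.8 CPM in A0 and Arc at 24.4 against 58.8 CPM, so immediate early genes by name were not all high in B0.

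Of 29 upstream kinases and bound factors, 17 were 2-fold higher and 3 lower in B0 over A0 (median 1.40) and 2 higher and 15 lower in BA10 over B0 (median -1.06). At the common limit 5 were higher and 2 lower (median 0.21), and 0 higher and 2 lower (median -0.06), close to the shares over all genes. Crem, a factor of germ cells that binds cAMP response elements, was at 461 CPM in A0, 136 in B0 and 354 in BA10. Of 17 other basic zipper partners, 10 were higher and 0 lower in B0 over A0 (median 1.76) and 1 higher and 12 lower in BA10 over B0 (median -1.85). At the common limit 3 partners were higher and 1 lower (median 0.20), and 0 higher and 3 lower (median -0.43).

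Heat shock genes, which dissociation can also induce, were split. Of 14, 7 were higher and 4 lower in B0 over A0 (median 1.15), from Hspd1 at 210 against 4.59 CPM to the germ cell gene Hspa1l at 1.93 against 66 CPM, and 3 were higher and 7 lower in BA10 over B0 (median -1.09). At the common limit 5 were higher and 2 lower (median 0.27), and 0 higher and 3 lower (median -0.16). Of 10 genes of the amino acid and unfolded protein response, 5 were higher and 2 lower in B0 over A0 (median 1.01) and 1 higher and 6 lower in BA10 over B0 (median -1.29). At the common limit 2 were higher and 2 lower (median 0.23), and 0 higher and 1 lower (median -0.11).

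In the shallowest over the deepest group of Leydig-like cells of B0, where 1.18% of the 18419 genes were 2-fold higher and 6.38% lower with a median of 0, 5 of the 27 feedback inhibitors were higher and 0 lower, with a median of 0.47. Of the 28 other immediate early factors 2 were higher and 2 lower (median 0.42), and of the 14 heat shock genes 1 was higher and 1 lower (median 0.04).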

How the data were processed

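Testis cells of 4 libraries, 1 for each group, were measured. Per the labels and methods, the authors counted reads with Cell Ranger 2.2.0 on mm10, kept cells with at least 200 genes and genes found in at least 3 cells, and worked in Seurat. In the deposited table each value is a natural log: a cell's UMIs of a gene were divided by all UMIs of the cell, multiplied by 10000, and 1 was added before the log. UMIs were recovered from these values, and 100% of those above 0 were whole within 0.001. The table has 0 mitochondrial genes, and 0 columns had no sample. Total UMIs were 150812974 (A0), 143714595 (A10), 25323535 (B0) and 91304225 (BA10).

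The members and gene lists were chosen with earlier results of these data known. UMIs were summed and scaled to CPM (Python 3.11.15, numpy 2.4.6, scipy 1.17.1), with exact Poisson intervals for levels, exact conditional intervals for folds and Clopper-Pearson intervals for shares, all at 95%. Log2 ratios had 1 CPM added, and 2-fold was the threshold; members were read against genes with a mean of at least 5 CPM, and lists, counted over every listed gene, against all genes. From each list, of genes with that mean, the 2 highest and 2 lowest ratios could be named, and the genes most like the set. The ratio and its interval were tested on simulated Poisson counts, the error model of the interval itself. Changes were set only in genes of at least 5 CPM in A0. Of the members only Jun and Jund reach that level in A0, so the others were not covered.

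Clustering used scanpy 1.11.5 with 2000 variable genes, 30 components, 15 neighbours and Leiden resolution 1. The members and a list of other immediate early genes were left out, of which 20 would have ranked among the variable genes. Libraries were not aligned, whereas the study used canonical correlation. Names came from marker levels scaled to the cluster where each marker was highest, by a rule set after the data were seen. Doublets were kept: Scrublet called 8.06%, 8.66%, 0.0859% and 1.27% of cells (A0, A10, B0 and BA10). Its few calls in B0 and BA10 may not be reliable, which was not tested. Alternatives were another added CPM, thinned cells, a common UMI limit, no doublet calls and other clusterings. Comparisons by cluster and by depth group, and BA10 over A0, were chosen after seeing the data.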

Additional observations from a re-analysis of the deposited data

Results flagged for a closer look

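For 3 members the direction with AOS alone was opposite to that with AOS after busulfan: Ier2 had a log2 ratio of 0.21 (0.05 to 0.37) in A10 over A0 and -3.40 (-3.53 to -3.27) in BA10 over B0, Jun had 0.04 (-0.08 to 0.15) and -3.13, and Egr1 had 0.01 (-0.15 to 0.16) and -4.91. The counting intervals of Jun and Egr1 in A10 over A0 include 0. With 1 library in each group the difference was not tested.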

How the results depend on the processing

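Over all cells, B0 over A0 had a median log2 ratio of the members of 4.97, which was 6.44 with 0.1 CPM added, 2.63 with 10 CPM added, 2.64 at the common UMI limit and 5.32 with every cell thinned to 2500 UMIs. BA10 over B0, at -3.92, was -4.54, -2.42, -1.98 and -4.03 in the same order. BA10 over A0, chosen after seeing the data, was 0.90 and, with thinned cells, 1.09. Within somatic-like cells, BA10 over B0, at -1.87, was -1.38 at resolution 0.5, -2.44 at resolution 2, -2.43 with fewer variable genes and -2.43 with the immediate early genes kept; the common UMI limit left 36 such cells of B0 and gave no value. The medians of A10 over A0 and those within SPC-like and ST-like cells were rerun under 5 or 6 alternatives. Each stayed between the medians of the members' lower and upper bounds, which are not an interval of the median. Over all cells, Jund in B0 over A0 and Jun in BA10 over B0 left the 2-fold call at the common UMI limit. No other member's call changed in A10 over A0, B0 over A0 or BA10 over B0 under the 5 alternatives run. The member calls of BA10 over A0 were not rerun. In BA10 over B0 within SPC-like cells and cluster 13, Egr1 left the 2-fold call at the common UMI limit. No direction of a called value turned. Without thinning, 177 of 210 shares of cells with a UMI lay outside the interval of the thinned share. No paired analysis was possible because each group was 1 library. Few UMIs limit Atf3 and Ier3 in A0 and A10, which rest on at most 17 UMIs. The same holds for Zfp36, with 22 UMIs in A0 and 12 in A10, and for Fos in A10, with 22.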

Other observations

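Several genes around the set were lower in both busulfan libraries than in A0. Dusp4, a MAP kinase phosphatase gene, was at 29.9 CPM in A0, 3.67 in B0 and 5.02 in BA10, Dusp10 was at 18.2, 4.74 and 3.34 CPM, and the heat shock gene Hspa1l was at 66, 1.93 and 3.69 CPM. Arc, an activity-regulated immediate early gene, had another order, at 58.8 CPM in A0, 24.4 in B0 and 94.3 in BA10. Within A0, Dusp4 was at 43.7 CPM in ST-like and 3.94 CPM in SPC-like cells, and Arc at 42.3 and 96.1 CPM. Dusp10 was at 24.1 CPM in ST-like cells of A0. ST-like cells were 61.1% of A0, 0.129% of B0 and 11.3% of BA10. The part of this makeup in these levels was not tested. In BA10 over A0, a comparison chosen after seeing the data, where 10.6% of all 18419 genes were 2-fold higher and 11.7% lower with a median log2 ratio of 0.14, 5 of the 27 feedback inhibitors were 2-fold higher and 4 lower, with a median of 0.11, and of the 28 other immediate early factors 7 were higher and 2 lower, with a median of 0.35. Rgs2 was at 3.36 CPM in BA10 against 0.411 in A0, and Nfkbia at 5.73 against 1.31 CPM.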
